A study of Homo sapiens with 60 samples.

Results

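The chemokines described here are 8 secreted or shed proteins that draw monocytes, macrophages, dendritic cells and lymphocytes: CCL2, CCL7, CCL8, CCL20, CXCL10, CXCL12, CXCL16 and CX3CL1. They were taken by gene symbol from a table of 60675 genes, and all 8 were found. Their mRNA was sequenced from SW1783 cells, a human line derived from an astrocytoma, kept in L-15 medium with 10% serum and exposed to each treatment for 24 h. The treated groups were 3 drugs at 10 µM and hot-water extracts of 6 medicinal materials at 20, 100 and 500 µg/mL, here the low, medium and high dose, and the vehicle DMSO was the control. Wortmannin and LY294002 inhibit PI3-kinase and thioridazine is an antipsychotic of the phenothiazine class. The extracts are called poria (Poria Cocos), atractylodes (Atractylodis Rhizoma), licorice (Glycyrrhizae Radix), ginseng (Panax Ginseng), angelica (Angelicae Gigantis Radix) and peony (Paeoniae Radix). That gives 22 groups and 60 libraries, with 2 libraries in each of the 6 angelica and peony groups and 3 in each of the other 16. All groups are 1 cell line, so each is a model of tumour-derived glial cells in culture without the leukocytes that these chemokines act on.

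Chemokines are small proteins that bind G protein-coupled receptors on leukocytes and direct their movement along a gradient. CCL2, CCL7 and CCL8 are the monocyte chemoattractant proteins, and astrocytes are a known source of CCL2 in the inflamed brain. CCL20 attracts cells through CCR6 and CXCL10 through CXCR3, while CXCL12 acts on CXCR4 and is also bound by the scavenging receptor ACKR3. CXCL16 and CX3CL1 are made as membrane proteins on a mucin stalk and are released by the proteases ADAM10 and ADAM17. Transcription of CCL2, CCL20 and CXCL10 is known to respond to NF-kB, and that of CXCL10 also to interferon.

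Libraries held 19.45 to 30.87 M counts, with 27.37 to 29.87 M in the vehicle group. The first peony high-dose library stood apart from the other 59 in the genes it detected. It had the lowest total, 37765 genes with a count against 23802 in its partner, and counts in 13432 of the 17830 genes that were at 0 in at least 75% of libraries, where the next highest library had 1028. Chemokine calls that rest on it are given with and without it. An earlier look at these data named 4 more libraries as standing apart from their replicates: the first of atractylodes high, the first of ginseng low, the third of licorice medium and the second of angelica low. Their chi-square per degree of freedom against their replicates was 22.2 and 25.1, 11.9 and 14.9, 23.8 and 23.9, and 19.8, while the 46 replicate pairs without any of the 5 libraries lay between 2.33 and 11.4. The sample codes in the labels place the vehicle alone in 1 set, the 3 drugs in another, and poria with atractylodes, licorice with ginseng, and angelica with peony in 3 more, so a difference from vehicle and a difference between sets cannot be told apart. The sources used here do not say what a set stands for, and comparisons between doses, between drugs and between extracts of 1 set do not have this limit. The labels do not say whether replicates were separate cultures, so p-values measure the spread between these samples, which may be technical. In bulk RNA, fewer cells making a transcript and less of it per cell cannot be told apart. Of 10 astroglial markers, VIM averaged 5310 CPM (counts per 1000000 of the library total), CD44 2584, GJA1 242 and SOX9 77.6 over all libraries, but GFAP, S100B, AQP4 and ALDH1L1 averaged 0.0887 CPM or less. Of the markers of microglia, monocytes and macrophages, TYROBP was at 0 in all 60 libraries and AIF1 in 55, while PTPRC averaged 8.48 CPM and CSF1R 2.87 CPM.

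The 8 chemokines fell into 4 that were readily measured and 4 close to 0. Per kilobase of exon in the vehicle group, CCL2 had the highest level at 17.6 ± 0.13 CPM per kb, followed by CXCL16 at 8.65 ± 0.34, CXCL12 at 2.03 ± 0.10 and CX3CL1 at 0.468 ± 0.031 CPM per kb (SD, n = 3). The length used was the union of all annotated exons of a gene, which can exceed the length of the mRNA made. CCL7 and CCL20 were at 0.107 and 0.0286 CPM per kb in the vehicle group, and CCL8 and CXCL10 had no count there. The filter on low counts kept the 4 genes with a readable level among 17919 genes, and the other 4 were not tested. Across all 22 groups the highest group mean was 15.1 times the lowest for CCL2, 3.64 times for CXCL12, 2.44 times for CX3CL1 and 1.26 times for CXCL16. CCL2 therefore covered the widest range and CXCL16 the narrowest.

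CCL2, the monocyte chemoattractant, lies on chromosome 17 (GRCh38, GENCODE 29, chr17:34255218-34257203, plus strand). CCL2 was higher than in vehicle with wortmannin, lower with thioridazine and not detectably different with LY294002. In wortmannin libraries CCL2 was at 59.3, 61.9 and 57.4 CPM, against 35.3, 34.7 and 35.1 CPM in vehicle libraries. Every wortmannin library was above every vehicle library, and the log2 fold change was 0.74 ± 0.08 (SE, adjusted p = 2.33e-10, edgeR's quasi-likelihood test). In thioridazine libraries it was at 6.69, 6.32 and 5.96 CPM, the lowest level of all groups, with a log2 fold change of -2.54 ± 0.10 (adjusted p = 4.98e-26, edgeR). LY294002 libraries held 30.3, 31.1 and 40.3 CPM and lay on both sides of the vehicle libraries. Their log2 fold change was -0.07 (95% interval -0.24 to 0.10, adjusted p = 0.535, edgeR), so no difference from vehicle was detected. The 2 PI3-kinase inhibitors differed from each other, wortmannin being 0.81 ± 0.08 higher than LY294002 on the log2 scale (adjusted p = 1.26e-10, edgeR). Thioridazine was 3.28 ± 0.10 lower than wortmannin and 2.47 ± 0.11 lower than LY294002 on the same scale (adjusted p = 6.48e-31 and 3.86e-25, edgeR).

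Among the extracts CCL2 was higher than in vehicle with atractylodes and licorice only. Atractylodes low-dose libraries held 41.7, 31.7 and 35.9 CPM, medium-dose libraries 49.6, 51.9 and 54.2 CPM, and high-dose libraries 101, 85.8 and 98.5 CPM. The low dose straddled the vehicle libraries (log2 fold change 0.03 ± 0.08, adjusted p = 0.924), while the medium and high doses lay above all of them (0.55 ± 0.08 and 1.43 ± 0.08, adjusted p = 1.13e-05 and 1.38e-19, edgeR). Licorice low-dose libraries held 47.2, 44.9 and 44.6 CPM, medium-dose libraries 76.5, 77.2 and 79.3 CPM, and high-dose libraries 71.7, 67.9 and 71.3 CPM. All 9 licorice libraries were above all vehicle libraries, by 0.34 ± 0.08 at the low, 1.12 ± 0.08 at the medium and 0.95 ± 0.08 at the high dose on the log2 scale (adjusted p = 0.0102, 1.02e-15 and 8.40e-14, edgeR). The licorice levels were highest at the medium dose, whose libraries did not overlap with those of the high dose; that step was not tested. Without the first licorice low-dose library the low-dose call was lost (0.31, adjusted p = 0.0510, edgeR).

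**Figure D1:**
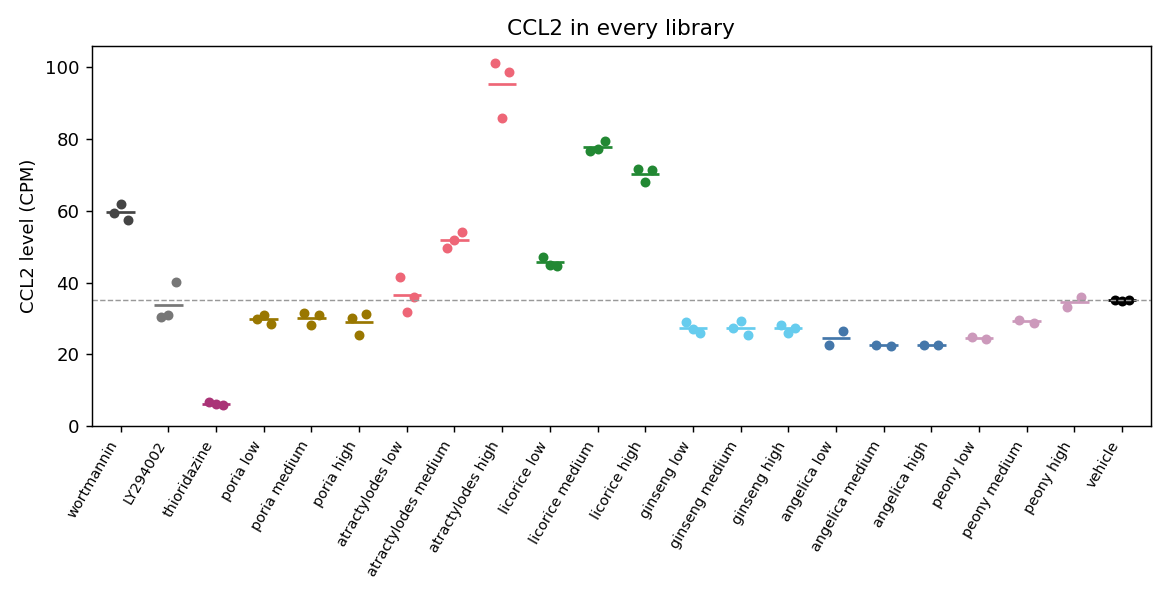
CCL2 level in CPM in every library, with 1 column per group, points for libraries and a bar for the group mean; the dashed line is the vehicle mean. Atractylodes and licorice groups run up to 101 CPM, thioridazine lies at about 6 CPM, and ginseng, angelica and poria form flat runs below the dashed line.

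With the other extracts CCL2 lay at or below the vehicle level. Ginseng libraries held 29.1, 27.2 and 25.9 CPM at the low dose, 27.3, 29.3 and 25.3 CPM at the medium dose and 28.3, 26.1 and 27.3 CPM at the high dose. They were lower than vehicle at all doses, with log2 fold changes of -0.39 ± 0.08, -0.40 ± 0.09 and -0.43 ± 0.08 (adjusted p = 0.0185, 0.0119 and 0.000756, edgeR). Angelica libraries held 22.5 and 26.5 CPM at the low dose, 22.8 and 22.4 CPM at the medium dose and 22.6 and 22.6 CPM at the high dose. Their log2 fold changes against vehicle were -0.55 ± 0.10, -0.68 ± 0.10 and -0.70 ± 0.10 (adjusted p = 0.000538, 3.49e-05 and 3.43e-06, edgeR). No ginseng or angelica library reached the lowest vehicle library. These 6 groups did not follow the dose: the high and low doses differed by -0.04 (95% interval -0.21 to 0.14) for ginseng and by -0.14 (-0.36 to 0.08) for angelica on the log2 scale. Neither extract is in the set of sample codes of the vehicle, so the step from vehicle and a step between sets cannot be told apart.

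Poria libraries held 29.8, 30.9 and 28.5 CPM of CCL2 at the low dose, 31.5, 28.3 and 31.0 CPM at the medium dose and 30.2, 25.4 and 31.3 CPM at the high dose, all below the vehicle libraries. Only the high dose passed the test (log2 fold change -0.33 ± 0.08, adjusted p = 0.00607, edgeR); its libraries overlapped with those of the low and medium doses, which did not pass (adjusted p = 0.137 and 0.138). Without the second poria high-dose library the call was lost (-0.24, adjusted p = 0.0997). Peony libraries held 24.9 and 24.3 CPM at the low dose, 29.6 and 28.9 CPM at the medium dose and 33.3 and 36.0 CPM at the high dose. Here the low dose was the one below vehicle (-0.56 ± 0.10, adjusted p = 0.000268, edgeR), while the medium dose did not pass (-0.30 ± 0.09, adjusted p = 0.0723) and the high dose overlapped with vehicle (-0.11 ± 0.09, adjusted p = 0.448). Without the first high-dose library that difference was -0.03 (adjusted p = 0.935), and without all 5 libraries that stood apart the medium dose passed (-0.30, adjusted p = 0.0451, edgeR). Leaving out 1 library also ended calls at lower doses of other extracts. The angelica low-dose call was lost without its first library (-0.42, adjusted p = 0.0838). The ginseng low-dose call was lost without replicate 2 or 3 or any vehicle library (adjusted p = 0.0570 to 0.186), and the ginseng medium-dose call without replicate 3 or any vehicle library (adjusted p = 0.0540 to 0.143).

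Ordered by group mean, CCL2 ran from atractylodes high through licorice medium, licorice high, wortmannin, atractylodes medium and licorice low, each with libraries that did not overlap with the next group. From atractylodes low through vehicle, peony high, LY294002, the poria groups and peony medium to ginseng, every group overlapped with its neighbour in the order. Peony low and the 3 angelica groups followed as another overlapping run, and thioridazine lay below all. Of the 21 neighbouring pairs, 13 overlapped and 8 did not. Against vehicle, CCL2 was higher in 6 of 21 comparisons, lower in 9 and not called in 6. Because all 21 use the same 3 vehicle libraries, they are not independent.

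Comparisons within a set of sample codes leave the vehicle out. Between the high and low doses, CCL2 rose by 1.40 ± 0.08 with atractylodes, by 0.61 ± 0.08 with licorice and by 0.45 ± 0.11 with peony on the log2 scale (adjusted p = 6.56e-19, 3.02e-08 and 0.00549, edgeR). The peony rise was 0.53 without the first high-dose library (adjusted p = 0.0115). It was lost without the second high-dose library (0.36, adjusted p = 0.0932) or the second low-dose library (0.44, adjusted p = 0.0609). The high and low doses of poria differed by -0.06 (95% interval -0.23 to 0.11), which did not pass the test. At the high dose, CCL2 was 1.76 ± 0.08 lower with poria than with atractylodes, 1.38 ± 0.08 higher with licorice than with ginseng, and 0.59 ± 0.11 higher with peony than with angelica on the log2 scale (adjusted p = 7.25e-23, 4.26e-19 and 0.000247, edgeR). The difference between peony and angelica was 0.67 without the first peony library (adjusted p = 0.000872).

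**Figure D2:**
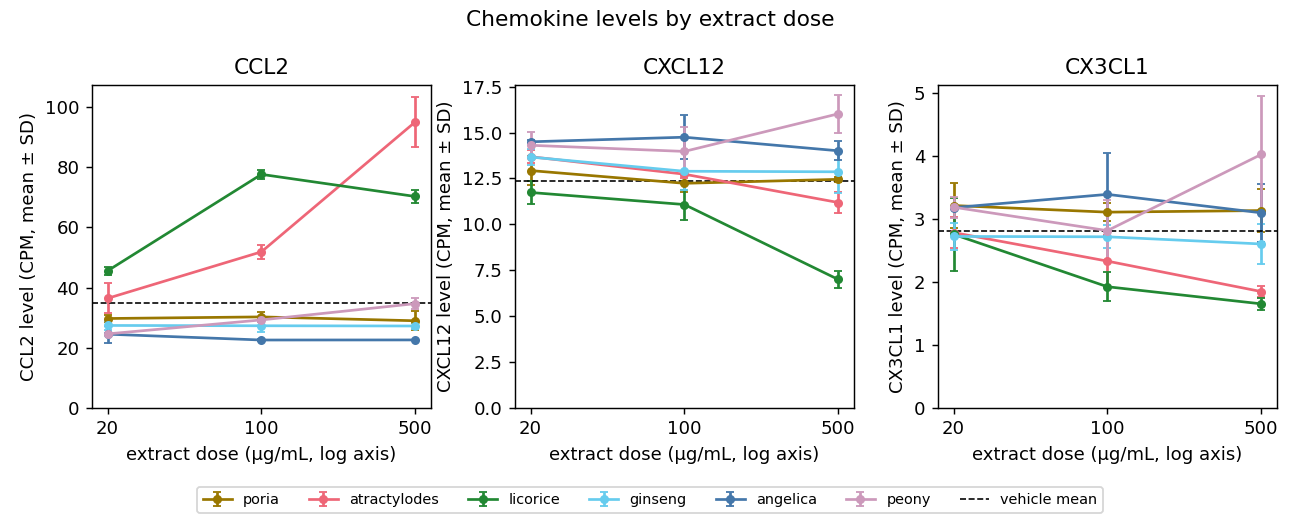
Mean level ± SD in CPM of CCL2, CXCL12 and CX3CL1 at 20, 100 and 500 µg/mL of each extract (log axis), with 1 line per extract and the vehicle mean as a dashed line; n is 2 for angelica and peony and 3 for the others. CCL2 climbs with atractylodes and is highest at the medium dose of licorice, while CXCL12 and CX3CL1 are lowest at the high dose of licorice.

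CXCL12, the ligand of CXCR4, lies on chromosome 10 (GRCh38, GENCODE 29, chr10:44370165-44386493, minus strand). It was lower with all 3 drugs. Wortmannin libraries held 4.78, 5.14 and 4.63 CPM, LY294002 libraries 5.41, 4.75 and 5.24 CPM and thioridazine libraries 4.19, 4.74 and 4.29 CPM, against 11.8, 13.0 and 12.2 CPM in vehicle libraries. No drug library came near the vehicle libraries, and the log2 fold changes were -1.38 ± 0.08, -1.29 ± 0.08 and -1.56 ± 0.08 (adjusted p = 7.10e-20, 5.73e-19 and 3.61e-23, edgeR). Wortmannin and LY294002 differed by -0.09 (95% interval -0.29 to 0.12, adjusted p = 0.643), unlike for CCL2. Thioridazine was 0.27 ± 0.10 lower than LY294002 (adjusted p = 0.0320, edgeR), a call that was lost without any of 4 of the 6 libraries (replicate 1 or 3 of either group, adjusted p = 0.0839 to 0.126).

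Of the extracts, CXCL12 was lower than in vehicle with licorice only. Its low-dose libraries held 12.5, 11.3 and 11.4 CPM, medium-dose libraries 11.7, 11.4 and 10.1 CPM, and high-dose libraries 7.50, 6.81 and 6.66 CPM. The low dose was not called, and the high dose lay below every vehicle library (log2 fold change -0.87 ± 0.08, adjusted p = 1.06e-13, edgeR). The medium dose just passed the test (-0.19 ± 0.07, adjusted p = 0.0480, edgeR), and the call was lost without the third library (-0.12, adjusted p = 0.339) or any vehicle library (adjusted p = 0.0558 to 0.202). The licorice high dose was also 0.76 ± 0.08 lower than its low dose and 0.87 ± 0.08 lower than the ginseng high dose on the log2 scale (adjusted p = 2.31e-11 and 9.69e-14, edgeR). CCL2 and CXCL12 thus moved in opposite directions with high-dose licorice, as they did with wortmannin.

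The other extracts left CXCL12 near the vehicle level. Atractylodes libraries held between 10.8 and 11.8 CPM at the high dose and 13.9, 13.9 and 13.3 CPM at the low dose. Neither dose passed against vehicle (-0.15 and 0.12 on the log2 scale, adjusted p = 0.149 and 0.464), but the high dose was 0.27 ± 0.07 lower than the low dose (adjusted p = 0.0160, edgeR). That call was lost without the first or second library of either dose (adjusted p = 0.0564 to 0.111). Peony high-dose libraries held 16.8 and 15.3 CPM, the highest of all groups, which was 0.27 ± 0.08 above vehicle on the log2 scale (adjusted p = 0.00874, edgeR). Without the first peony library, the one that stood apart, the difference was 0.24 and did not pass (adjusted p = 0.125). Poria, ginseng and angelica, the medium dose of atractylodes, the low dose of licorice and both lower doses of peony were not called, with log2 fold changes between -0.11 and 0.20. Against vehicle, CXCL12 was thus higher in 1, lower in 5 and not called in 15 of 21 comparisons. In the order of group means, 18 of the 21 neighbouring pairs overlapped. The gaps lay below atractylodes medium, below licorice medium and below licorice high, which set licorice high and the 3 drugs apart from the rest.

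The promoter of CXCL12 is shown because this was the only tested chemokine of the 8 with an entry in the sequence table used (RefSeq, GRCh38.p14, from 250 bases before to 50 after the start, chr10:44385048-44385347, minus strand). Of the 8 genes, 5 had an entry: CCL7, CCL8, CCL20, CXCL10 and CXCL12. Capitals mark the GC box GGGCGG, searched on both strands. It occurs 3 times here, each on the opposite strand and so read as its reverse complement, and the last 2 share a base; 45% of 35116 promoters of this length hold it. GC content was 77%. Neither NF-kB-like letters (GGG and TTCC with any 3 bases between them) nor a TATA box (TATAAA) were found in this window.
CXCL12: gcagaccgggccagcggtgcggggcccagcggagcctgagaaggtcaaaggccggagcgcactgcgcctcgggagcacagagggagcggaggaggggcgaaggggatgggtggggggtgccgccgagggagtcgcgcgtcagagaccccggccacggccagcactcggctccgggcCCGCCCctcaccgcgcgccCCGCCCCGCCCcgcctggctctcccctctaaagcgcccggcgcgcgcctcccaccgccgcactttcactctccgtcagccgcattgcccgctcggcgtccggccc

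Set against each other within a library, both per kilobase of exon, CCL2 exceeded CXCL12 in every library. The size of the ratio depends on the exon lengths used (1986 bp for CCL2 and 6077 bp for CXCL12), but its order between groups does not. The ratio was 36.9 to 38.0 in wortmannin libraries, 29.3 to 32.8 at the licorice high dose, 23.9 to 28.8 at the atractylodes high dose, 20.1 to 23.9 at the licorice medium dose and 17.2 to 23.5 in LY294002 libraries, against 8.16 to 9.13 in vehicle libraries. At the other end it was 4.08 to 4.89 in thioridazine libraries and 4.47 to 5.57 in angelica libraries. A ratio within a library does not depend on the scaling between libraries. Both genes contributed to the high ratio with wortmannin, CXCL12 alone passed the test with LY294002, and CCL2 alone passed it with high-dose atractylodes. With thioridazine both genes fell, CCL2 by more, and the ratio lay below that of vehicle.

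**Figure D3:**
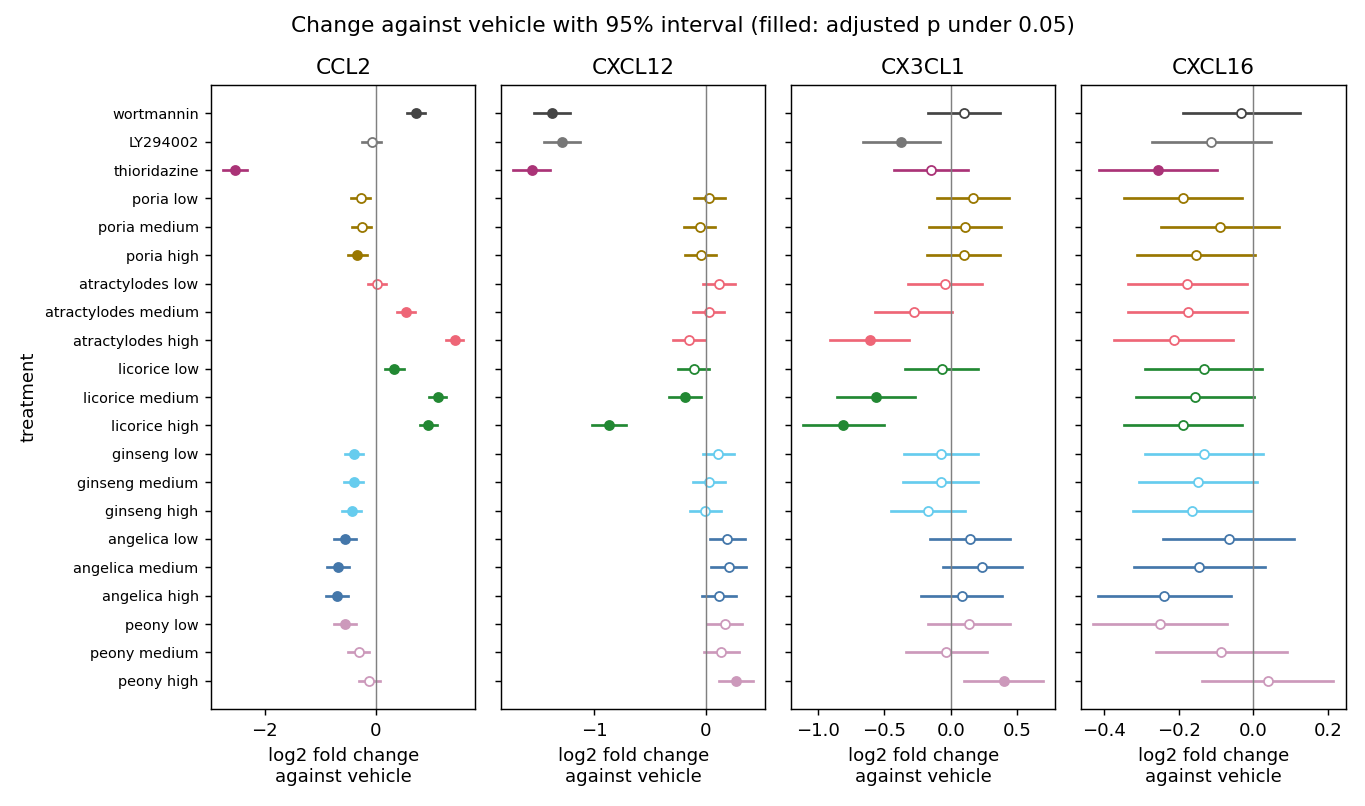
Log2 fold change against vehicle with its 95% interval for CCL2, CXCL12, CX3CL1 and CXCL16, with 1 row per treatment and a separate horizontal scale per gene; filled points had an adjusted p under 0.05 (edgeR's quasi-likelihood test). CCL2 has filled points on both sides of 0, CXCL12 and CX3CL1 mostly below it, and CXCL16 a single one.

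CX3CL1, the membrane-bound fractalkine, lies on chromosome 16 (GRCh38, GENCODE 29, chr16:57372458-57385048, plus strand). It fell where CCL2 was highest among the extracts. Licorice medium-dose libraries held 2.18, 1.74 and 1.85 CPM, licorice high-dose libraries 1.58, 1.62 and 1.76 CPM, and atractylodes high-dose libraries 1.80, 1.78 and 1.95 CPM, against 2.85, 2.59 and 2.96 CPM in vehicle libraries. All 9 treated libraries lay below all vehicle libraries. The log2 fold changes were -0.56 ± 0.15 with medium-dose licorice, -0.81 ± 0.15 with high-dose licorice and -0.61 ± 0.15 with high-dose atractylodes (adjusted p = 0.00294, 2.58e-05 and 0.00322, edgeR). High against low dose, CX3CL1 was 0.74 ± 0.15 lower with licorice (adjusted p = 0.000222, edgeR) and 0.57 ± 0.15 lower with atractylodes (adjusted p = 0.0173, edgeR). The atractylodes call was lost without the first or second high-dose or the second low-dose library (adjusted p = 0.0588 to 0.117). At the high dose it was 0.71 ± 0.15 higher with poria than with atractylodes and 0.64 ± 0.15 lower with licorice than with ginseng (adjusted p = 0.000352 and 0.000844, edgeR).

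The drugs had smaller effects on CX3CL1. LY294002 libraries held 2.04, 2.16 and 2.39 CPM, below all vehicle libraries (log2 fold change -0.37 ± 0.14, adjusted p = 0.0358, edgeR). The call was lost without vehicle replicate 1 or 3 or LY294002 replicate 1 or 2 (adjusted p = 0.0917 to 0.136). Wortmannin libraries held 2.89, 3.10 and 3.19 CPM and thioridazine libraries 2.43, 2.86 and 2.69 CPM, and neither passed against vehicle (adjusted p = 0.634 and 0.408). Wortmannin was 0.47 ± 0.14 higher than LY294002 (adjusted p = 0.0175, edgeR), lost without any of 4 of the 6 libraries (wortmannin replicate 2 or 3, LY294002 replicate 1 or 2, adjusted p = 0.0543 to 0.0717). Peony high-dose libraries held 4.68 and 3.36 CPM, and the difference from vehicle of 0.40 ± 0.15 just passed (adjusted p = 0.0489, edgeR). The higher of these came from the library that stood apart, and without it the difference was 0.20 (adjusted p = 0.613). That call was also lost without any vehicle library (adjusted p = 0.0587 to 0.149). Against vehicle, CX3CL1 was higher in 1, lower in 4 and not called in 16 of 21 comparisons, and 20 of the 21 neighbouring pairs in its order of group means overlapped.

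CXCL16, the other membrane-bound chemokine, lies on the short arm of chromosome 17 (GRCh38, GENCODE 29, chr17:4733526-4739922, minus strand), away from the CCL genes. It stayed between 18.8 and 27.3 CPM in all 60 libraries. Thioridazine libraries held 21.5, 21.4 and 20.9 CPM, against 25.2, 23.6 and 23.7 CPM in vehicle libraries, without overlap (log2 fold change -0.26 ± 0.08, adjusted p = 0.00572, edgeR). This was the only call in 21 comparisons with vehicle, and it was lost without the first vehicle library (-0.20, adjusted p = 0.0556). Thioridazine was also 0.22 ± 0.08 lower than wortmannin (adjusted p = 0.0212, edgeR), lost without wortmannin replicate 1 or 3 or thioridazine replicate 3 (adjusted p = 0.0616 to 0.0869). The vehicle group had the second highest mean, so that 20 of the 21 fold changes were below 0, between -0.26 and -0.03, and 1 was above. The number of calls rose to 6 without the first atractylodes low-dose library, which at 26.2 CPM lay above its partners at 20.4 and 18.8 CPM, and to 3 without the third library of that group or the third ginseng low-dose library. It was 2 without the first licorice high-dose library. No dose or extract comparison called CXCL16.

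**Figure D4:**
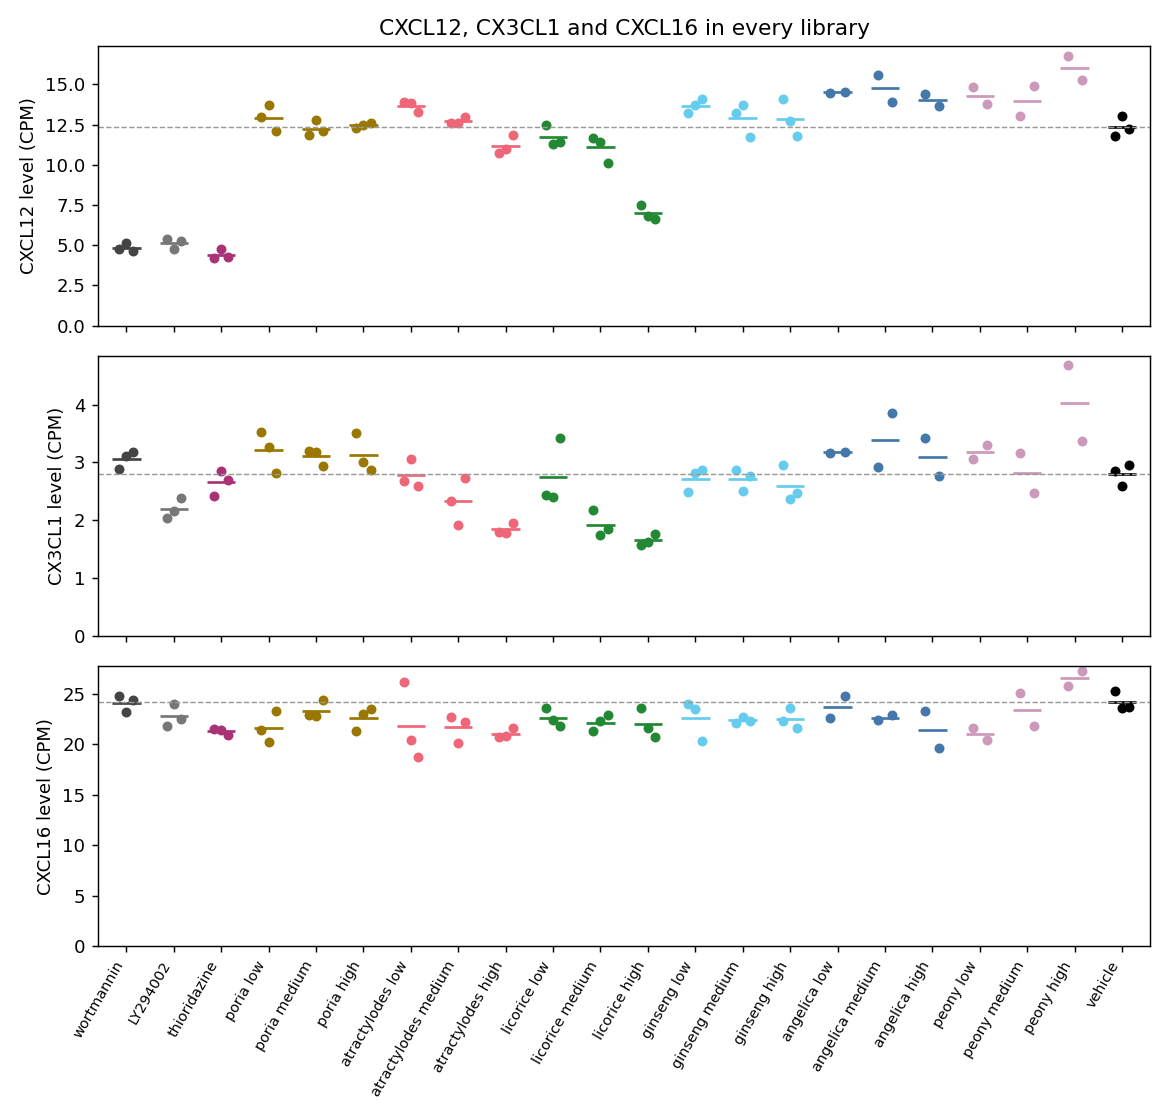
Level in CPM of CXCL12, CX3CL1 and CXCL16 in every library, with 1 column per group, points for libraries, a bar for the group mean and a dashed line for the vehicle mean. CXCL12 drops to between 4 and 8 CPM with the 3 drugs and high-dose licorice, CX3CL1 is lowest with licorice and atractylodes, and CXCL16 lies close to the dashed line throughout.

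The remaining chemokines were close to the limit of detection. CCL7 (chr17:34270221-34272242) and CCL8 (chr17:34319036-34321402) follow CCL2 on the plus strand of chromosome 17, with gaps of 13017 bp from CCL2 to CCL7 and 46793 bp from CCL7 to CCL8. CCL7 had 0 to 10 counts a library and 190 in all 60. Its counts were 4, 4 and 6 in wortmannin libraries, 9, 6 and 1 at the atractylodes high dose and 6, 4 and 7 at the licorice high dose, against 4, 2 and 2 in vehicle libraries. Per depth that was 0.148 to 0.222 CPM with wortmannin, 0.0389 to 0.353 CPM at the atractylodes high dose and 0.175 to 0.256 CPM at the licorice high dose, against 0.0691 to 0.134 CPM in vehicle. On this scale 4 of 21 groups lay above all vehicle libraries: wortmannin, licorice high, peony medium (10 and 4 counts) and peony high (4 and 7 counts). Without the filter on low counts none of these passed (adjusted p = 0.81, 0.453, 0.805 and 0.411, edgeR). Summed over each group, CCL7 had 14 counts with wortmannin, 16 at the atractylodes high dose and 17 at the licorice high dose. Thioridazine had 3 counts and vehicle 8. CCL8 had 3 counts in all 60 libraries, of which 2 came from the peony library that stood apart. With 0 counts of 86.2 M counts in the vehicle group, up to 0.0348 CPM of CCL8 is allowed by counting error alone.

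CCL20 (GRCh38, GENCODE 29, chr2:227805739-227817564, plus strand) had 0 to 8 counts a library. The highest sums were 21 counts at the licorice high dose, from 6, 7 and 8, and 17 at the atractylodes high dose, from 8, 1 and 8, against 4 in vehicle libraries, from 3, 0 and 1. All 3 licorice libraries were above the vehicle libraries, and the atractylodes libraries overlapped with them. Without the filter on low counts, edgeR gave an adjusted p of 0.0795 for high-dose licorice and 0.255 for high-dose atractylodes against vehicle. In that fit CCL20 passed for the licorice high against low dose (adjusted p = 0.0296), licorice against ginseng at the high dose (adjusted p = 0.00528) and poria against atractylodes at the high dose (adjusted p = 0.0294), on these few counts. CXCL10 (chr4:76021117-76023497, minus strand) was at 0 in 48 of 60 libraries, with 3 counts at the licorice high dose, 4 in 1 ginseng medium-dose library and 5 in the 1 peony library that stood apart, against 0 in the vehicle group. A small change of CXCL10 or CCL8 was not detectable at this depth. No library held more than 5 counts of CXCL10 or 2 of CCL8.

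**Figure D5:**
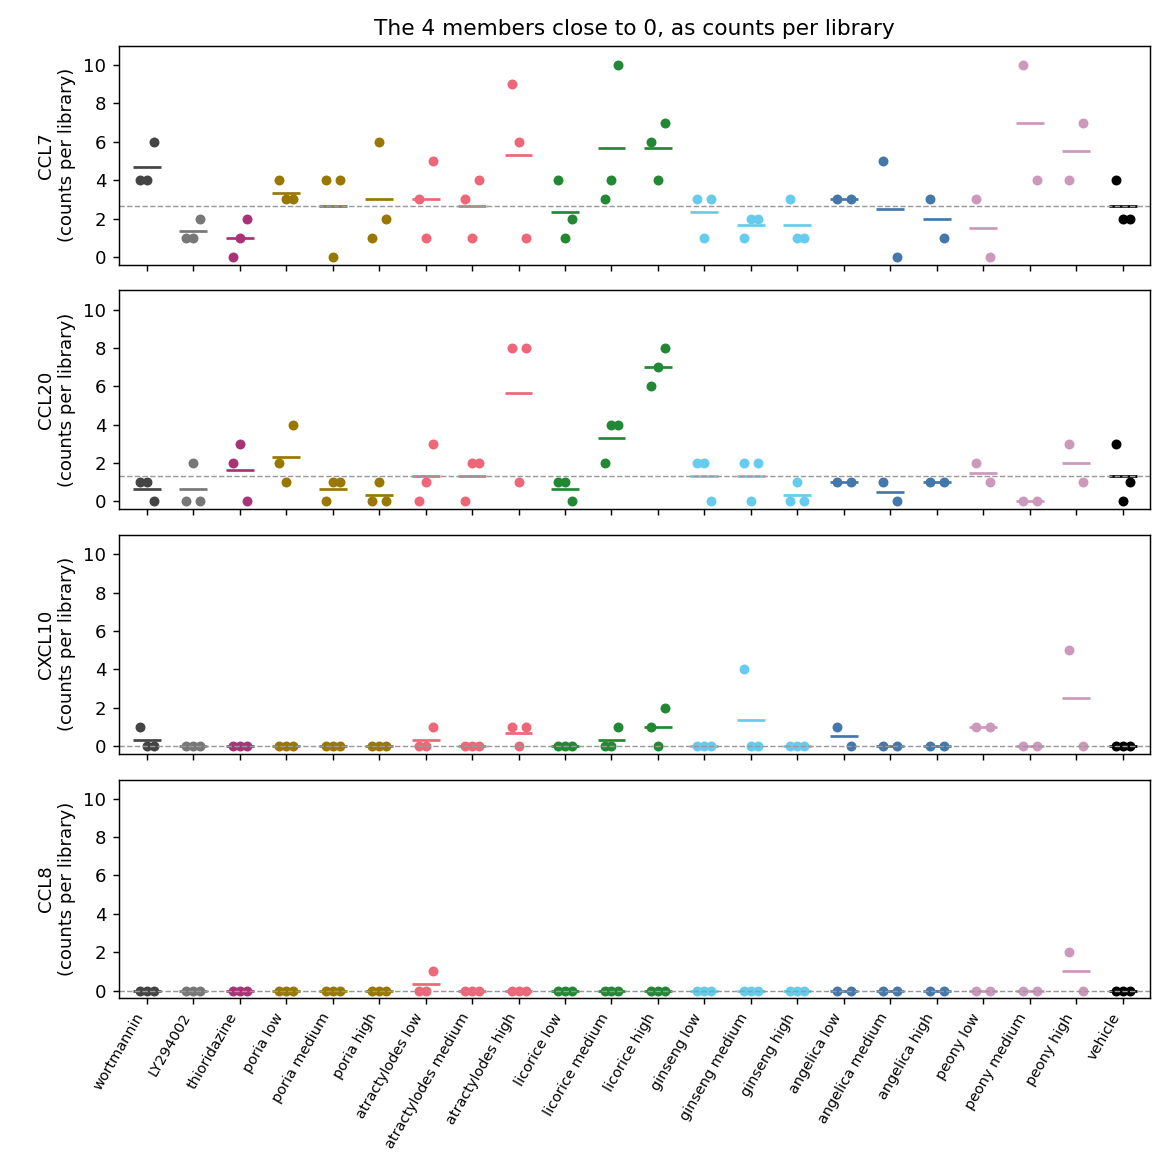
Counts per library of CCL7, CCL20, CXCL10 and CCL8, with 1 column per group, points for libraries, a bar for the group mean and a dashed line for the vehicle mean. No library has more than 10 counts; CCL20 reaches 8 counts at the high doses of atractylodes and licorice, and CXCL10 and CCL8 are mostly at 0.

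The promoters of CCL20 and CXCL10 are shown because, unlike that of CXCL12, they hold NF-kB-like letters, in 2 chemokines whose counts stayed near 0 (RefSeq, GRCh38.p14, chr2:227813592-227813891, plus strand, and chr4:76023448-76023747, minus strand). Capitals mark the same NF-kB-like letters, the interferon-response-like letters (GAAA and GAAA with any 2 bases between them) and the TATA box TATAAA, searched on both strands and without overlap here. Of 35116 promoters, 6.52%, 3.57% and 11.5% hold them. In CCL20 the NF-kB-like match lies on the opposite strand. The CCL7 and CCL8 windows hold a TATA box, and that of CCL7 also AP-1-like letters (TGANTCA, in 7.71% of promoters). A match describes the letters and is no evidence of binding.
CCL20: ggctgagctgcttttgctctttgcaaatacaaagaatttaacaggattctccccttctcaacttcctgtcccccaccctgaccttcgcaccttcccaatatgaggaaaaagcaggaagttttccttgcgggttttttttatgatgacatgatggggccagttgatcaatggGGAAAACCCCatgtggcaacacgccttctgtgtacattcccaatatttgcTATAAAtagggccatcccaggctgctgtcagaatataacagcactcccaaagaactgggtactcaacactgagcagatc
CXCL10: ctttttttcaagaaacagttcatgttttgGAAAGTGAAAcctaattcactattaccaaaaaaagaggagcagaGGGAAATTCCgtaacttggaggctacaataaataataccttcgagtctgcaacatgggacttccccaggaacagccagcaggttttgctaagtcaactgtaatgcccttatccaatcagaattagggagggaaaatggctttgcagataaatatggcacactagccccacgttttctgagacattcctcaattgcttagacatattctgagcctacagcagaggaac

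Counted over the 4 tested chemokines, thioridazine, medium-dose licorice and high-dose licorice gave the most calls against vehicle, with 3 each. With wortmannin 1 was higher and 1 lower, where 31.7% of all tested genes were called in either direction. With LY294002 2 were lower and none higher (39.3% of genes called), and with thioridazine 3 were lower and none higher (48.4%). Low-dose licorice had 1 higher (3.29% of genes), and the medium and high doses each had 1 higher and 2 lower (25.2% and 30.9%). Low-dose atractylodes had none called (0.804%), the medium dose 1 higher (1.06%) and the high dose 1 higher and 1 lower (13.9%). Low-dose peony had 1 lower (5.23%), the medium dose none called (2.55%) and the high dose 2 higher (20.7%), and both of these calls were lost without its first library. Poria had none called at the low and medium doses (0.419% and 1.47%) and 1 lower at the high dose (11.6%). Each dose of ginseng (0.592%, 0.569% and 7.25% of genes from low to high) and of angelica (1.75%, 2.91% and 6.46%) had 1 lower, which was CCL2. The shares of all genes depended on the libraries that stood apart. Without the first atractylodes high-dose library 5.00% of genes were called for that dose, without the third licorice medium-dose library 12.5%, without the first peony high-dose library 7.63% and without the first ginseng low-dose library 2.25%. Without all 5 libraries the shares for the 18 extract groups lay between 2.17% and 35.4%, against 0.419% and 30.9% with them, so these shares depend on the libraries kept.

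Between drugs, 2 of the 4 were lower with thioridazine than with LY294002 (40.0% of genes called) and 2 lower with thioridazine than with wortmannin (38.7%), and 2 were higher with wortmannin than with LY294002 (16.4%). Between the high and low doses, atractylodes and licorice each had 1 higher and 2 lower (4.10% and 18.2% of genes) and peony 1 higher (5.90%). Poria, ginseng and angelica had none (5.51%, 0.653% and 0.943%). At the high dose, 1 was higher and 1 lower with poria than with atractylodes (16.6%), 1 higher and 2 lower with licorice than with ginseng (34.2%), and 1 higher with peony than with angelica (4.34%). The difference between the dose effects of paired extracts was called for 1 chemokine between poria and atractylodes (3.53% of genes), 3 between licorice and ginseng (13.4%) and 1 between peony and angelica (0.938%). Without the first peony high-dose library the shares were 2.25% for peony high against low, 1.72% for peony against angelica and 0.603% for the difference of their dose effects. Without the first atractylodes high-dose library they were 2.41% for atractylodes high against low and 10.7% for poria against atractylodes.

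Most receptors of these chemokines were near 0 in the cells. Of 12 receptor genes 5 were tested, and none reached 5 CPM in any group. The ones named here were chosen for their role, after their values were seen. CCR2, the receptor of CCL2, was at 0 in 58 of 60 libraries, CCR6 in 59, CXCR3 in 53 and CX3CR1 in 37. ACKR3, the scavenger of CXCL12, was at 0.663 CPM with wortmannin and 0.493 CPM with thioridazine, against 1.21 CPM in vehicle (log2 fold change -0.89 ± 0.23 and -1.35 ± 0.24, adjusted p = 0.00155 and 3.94e-06, edgeR). CXCR4, the signalling receptor of CXCL12, was at 0.632 CPM with LY294002 and 0.619 CPM with thioridazine, against 1.01 CPM in vehicle (-0.69 ± 0.25 and -0.76 ± 0.25, adjusted p = 0.0250 and 0.00959, edgeR). Of the 5, thioridazine had 2 higher and 3 lower (48.4% of all genes called), LY294002 and wortmannin 1 higher and 2 lower each (39.3% and 31.7%), and high-dose licorice 1 higher (30.9%). With thioridazine ACKR3 and CXCR4 were both among the lower ones, and the 2 higher ones are not named. The summed level of the 12 receptors was 3.741 to 4.277 CPM with wortmannin, above all vehicle libraries (3.249 to 3.515 CPM). LY294002 (2.961 to 3.535 CPM) and thioridazine (2.688 to 3.307 CPM) overlapped with vehicle.

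The proteases that release or trim these chemokines differed widely in level, with MMP14 at 930.0 CPM and CTSS at 3.42 CPM in vehicle. All 6 were tested. With thioridazine 4 were higher and none lower than in vehicle (median log2 fold change 0.34, against 0.02 over all genes, of which 48.4% were called), among them MMP14 at 1803 CPM, against 930.0 CPM in vehicle (0.88 ± 0.04, adjusted p = 6.12e-24, edgeR), and ADAM17 at 69.5 CPM, against 46.2 CPM in vehicle (0.52 ± 0.06, adjusted p = 2.45e-11). Wortmannin had 3 higher (31.7% of all genes called), with MMP2, which can cleave CCL7 and CXCL12, at 602 CPM, against 412 CPM in vehicle (0.52 ± 0.04, adjusted p = 3.13e-14). High-dose licorice had 3 higher and 2 lower (30.9% of all genes called), with the lysosomal protease CTSS at 11.7 CPM, against 3.42 CPM in vehicle (1.72 ± 0.11, adjusted p = 2.94e-18), and ADAM10 lower by 0.19 ± 0.04 on the log2 scale (adjusted p = 0.000176, edgeR). CTSS was also higher with high-dose atractylodes at 9.88 CPM (1.52 ± 0.11, adjusted p = 2.10e-15).

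NF-kB subunits and feedback genes were higher in the extract groups in which CCL2 was higher than in vehicle. Their summed level also lay above all vehicle libraries with low-dose atractylodes and high-dose peony, where CCL2 was not called. The part of NF-kB in the CCL2 levels was not tested. Of 10 genes, 7 were higher with low-dose, 8 with medium-dose and 9 with high-dose licorice (3.29%, 25.2% and 30.9% of all genes called). With low-, medium- and high-dose atractylodes 2, 6 and 8 were higher (0.804%, 1.06% and 13.9%), and none was lower in any of these groups. The median log2 fold change was 1.21 with high-dose licorice and 0.78 with high-dose atractylodes, against 0.01 over all genes in both, of which 30.9% and 13.9% were called. Without the first atractylodes high-dose library 7 of 10 were higher there, and without the third licorice medium-dose library 9. TNFAIP3, which limits NF-kB signalling, was at 83.7 CPM with high-dose licorice and 53.1 CPM with high-dose atractylodes, against 24.8 CPM in vehicle (1.70 ± 0.07 and 1.08 ± 0.07, adjusted p = 7.65e-27 and 9.19e-18, edgeR). With wortmannin, where CCL2 was higher, 1 of the 10 was higher and 7 lower (median -0.21, 31.7% of all genes called). With LY294002 1 was higher and 6 lower (median -0.22, 39.3% of all genes called), and with thioridazine none was higher and 8 were lower (median -0.38, 48.4%). BIRC3, an inhibitor of cell death, was at 6.89, 5.23 and 3.48 CPM with wortmannin, LY294002 and thioridazine, against 15.1 CPM in vehicle (-1.16 ± 0.09, -1.56 ± 0.10 and -2.19 ± 0.11, adjusted p = 1.00e-14, 1.58e-18 and 1.32e-24, edgeR). No poria group had a gene of this list called, where 0.419%, 1.47% and 11.6% of all genes were called from low to high dose. Ginseng, angelica and peony groups had at most 1 higher and 2 lower, where 0.569% to 20.7% of all genes were called.

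Other chemokines also rose with licorice and atractylodes. Of 15 further CXC and XC chemokines 6 were tested, and all 6 were higher with medium-dose licorice, high-dose licorice and high-dose atractylodes (median log2 fold change 3.22, 4.16 and 3.21). Of all genes, 25.2%, 30.9% and 13.9% were called in these groups. Without the third licorice medium-dose library 5 of the 6 were higher there, and without the first atractylodes high-dose library 5 were higher at that dose. Low- and medium-dose atractylodes had 4 and 5 higher (median 1.23 and 2.18, 0.804% and 1.06% of all genes called), though CCL2 was not called at the low dose. Low-dose licorice had 5 higher (median 1.53, 3.29%). High-dose peony had 2 higher (median 0.807, 20.7%), with the library that stood apart included. CXCL8, which attracts neutrophils, was at 241 CPM with high-dose licorice and 204 CPM with high-dose atractylodes, against 10.8 CPM in vehicle (4.43 ± 0.08 and 4.23 ± 0.08, adjusted p = 7.79e-41 and 1.31e-39, edgeR). CXCL5 and CXCL1, also neutrophil chemokines, were at 10.1 and 8.73 CPM with high-dose licorice, against 0.769 and 0.220 CPM in vehicle. In contrast to CCL2, CXCL8 was 0.27 ± 0.10 lower with wortmannin than in vehicle (adjusted p = 0.0450, edgeR) and higher with high-dose poria (0.88 ± 0.09, adjusted p = 6.61e-10). Of 20 further CC chemokines 2 were tested, and both were higher with high-dose licorice (CCL26 at 5.22 CPM, against 3.50 CPM in vehicle, 0.53 ± 0.13, adjusted p = 0.00108). Of 12 interferon-response genes, 11 were higher with high-dose licorice (median 0.63, 30.9% of all genes called) and none lower. With high-dose atractylodes 2 were higher (median 0.21, 13.9% of all genes called), a share close to that of all genes, and none was lower. CXCL10 stayed at 0 to 2 counts in those libraries. IRF7, an interferon regulator, was at 8.53 CPM with high-dose licorice, against 4.65 CPM in vehicle (0.82 ± 0.13, adjusted p = 1.15e-06). The summed level of the 12 interferon-response genes lay above all vehicle libraries in 9 of 21 groups and below them in 1. Among the 9 was thioridazine, where CCL2 was lowest (351.9 to 375.7 CPM, against 267.2 to 278.5 CPM in vehicle).

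Markers of other cell types also differed between these groups. The summed level of 8 markers of microglia, monocytes and macrophages was 7.04 to 8.61 CPM at the licorice high dose, where CCL2 was higher than in vehicle, 7.48 to 8.53 CPM with thioridazine, where it was lower, and 8.32 to 10.3 CPM with LY294002, where no difference was detected, against 10.8 to 12.2 CPM in vehicle libraries. These 3 groups lay below all vehicle libraries. Another 8 lay above them, and 10 overlapped. Among the 8 were the 3 angelica groups (12.9 to 14.8 CPM), ginseng medium and high (12.5 to 14.9 CPM) and peony low (13.0 to 13.8 CPM), where CCL2 was lower. Atractylodes low (12.8 to 13.5 CPM) and peony high (12.6 to 16.8 CPM), where CCL2 was not called, were also among them. PTPRC, which made up most of this sum in vehicle, was lower with thioridazine (3.68 CPM, against 8.49 CPM in vehicle, log2 fold change -1.28, adjusted p = 4.18e-14, edgeR) and with high-dose licorice (5.63 CPM, -0.65, adjusted p = 2.61e-06). TYROBP, a defining marker, was at 0 in all libraries.

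Of 3 neuronal markers, the summed level was 74.8 to 82.4 CPM with wortmannin and 85.9 to 90.8 CPM with thioridazine, against 55.0 to 57.4 CPM in vehicle, and LY294002 libraries also lay above all vehicle libraries. SNAP25, of the synaptic vesicle fusion machinery, was higher with wortmannin (0.75 ± 0.06 on the log2 scale, adjusted p = 5.25e-14), and SYT1, a calcium sensor of synaptic vesicles, with thioridazine (0.90 ± 0.06, adjusted p = 3.13e-20, edgeR). SYT1 was also higher with wortmannin (0.29 ± 0.06, adjusted p = 3.94e-05), but SNAP25 was lower with thioridazine (-0.19 ± 0.07, adjusted p = 0.0169, edgeR). RBFOX3, the defining marker of the list, averaged at most 0.201 CPM in the drug groups. Of 4 endothelial markers only PECAM1 was tested, and it was at 1.39 CPM with wortmannin and 1.68 CPM with thioridazine, against 0.707 CPM in vehicle (0.94 ± 0.28 and 1.17 ± 0.28, adjusted p = 0.00831 and 0.000396, edgeR). PECAM1 is named although it is under 5 CPM, as the only one tested. VWF averaged 0.037 CPM with wortmannin and 0.256 CPM with thioridazine, against 0.117 CPM in vehicle. CLDN5 averaged 0.074 and 0 CPM, against 0.024 CPM in vehicle, and CDH5 0.013 and 0.027 CPM, against 0.012 CPM. The summed level of the 10 astroglial markers was 6692 to 6961 CPM with thioridazine and 7215 to 7490 CPM at the licorice high dose, against 8682 to 8988 CPM in vehicle, and 14 of 21 groups lay below all vehicle libraries. By their averages over all libraries, VIM and CD44 made up most of this sum, and GFAP, S100B, AQP4 and ALDH1L1 were near 0. Of 4 lymphocyte markers none was tested, and their sum was at most 1.03 CPM, in the peony library that stood apart. The part of these transcripts in the chemokine results was not tested.

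The genes whose levels followed each chemokine most closely over the 22 group means were named by a fixed rule, as a description. For CCL2 these were NEXN (Pearson r = 0.917), NFE2L3 (0.913) and PAPPA (0.898), for CXCL12 SUSD4 (0.961), PYGL (0.945) and KPNB1 (0.939), and for CXCL16 QRICH1 (0.759), FTO (0.749) and SHPK (0.719), each the top 3 of 9934 genes whose mean reached 5 CPM. Among the chemokines themselves r was -0.53 between CCL2 and CX3CL1, 0.48 between CXCL16 and CX3CL1, 0.41 between CXCL12 and CX3CL1, and 0.04 between CCL2 and CXCL12. All points share libraries between the genes, so these values carry no test.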

How the data were processed

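Per the labels' protocols, mRNA libraries were made from total RNA with a directional kit and read as 100 bp paired ends. The deposited values are expected counts per gene, which the authors estimated with RSEM 1.3.3 and did not normalise between samples; per the submitters' processing notes, STAR 2.7.3a, Trim Galore 0.6.5 and FastQC 0.11.9 were used with the build GRCh38. Whether counting used the strand is not stated. Of the table's 279 columns, 60 belong to the samples and 219 were left unused. DMSO in the vehicle is 0.1% by the sample labels but 2% by the series text, which also allows doses below 500 µg/mL for toxic extracts while the labels give 20, 100 and 500 µg/mL throughout; neither could be settled.

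Counts were rounded (9.48% were not whole within 1e-06). The CPM values printed are counts per 1000000 of the library total. Genes were filtered with filterByExpr (minimum count 10, minimum total 15), TMM-scaled and fitted with 22 group coefficients in a single quasi-likelihood model of edgeR 4.0.16 in R 4.3.3, so a fold change can differ slightly from a ratio of CPM means. Tests were two-sided with Benjamini-Hochberg adjustment over all 17919 genes and called below 0.05. Each SE is the log2 fold change divided by the t quantile that gives the test's p. The comparisons were 21 with vehicle, 3 between drugs, 6 between doses and 3 between extracts of 1 set of sample codes, and, added after the data were seen, 3 differences of dose effects. The limit that a count of 0 allows is 3 counts of the group's total and covers counting error only.

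The 8 chemokines, the gene lists and the comparisons were chosen with earlier results of these data known. All 8 were reported in every comparison; from other lists at most 4 genes a comparison with at least 5 CPM were named, by the smallest p, except where stated. Each result was also computed with DESeq2 1.42.0 (Wald test), with RLE size factors, without the low-count filter, with a replicate block, on the compared groups alone, without 5 libraries together and without each library in turn. The last kept the genes tested and the dispersion trend of all libraries. Replicates were compared with each other and none was a duplicate (lowest chi-square per degree of freedom 2.33). The model was tested on simulated counts for 17107 genes with 50 changed at each fold. These counts had 1 common spread for all genes and no library that stood apart, and the changed genes were well counted in vehicle. The recovery below therefore does not extend to genes with few counts or to groups with a library that stood apart. For wortmannin against vehicle it recovered 25, 43, 49 and 50 genes at folds of 1.25, 1.5, 2 and 4, and for the peony high dose 20, 37, 48 and 50. It called 3 and 5 unchanged genes, and 0 changed genes in the wrong direction.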

Additional observations from a re-analysis of the deposited data

Results flagged for a closer look

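The effect of dose, high against low, differed between extracts of the same set of sample codes in 5 cases, each by a test of the difference itself in edgeR's model across all genes. For CCL2 the change with dose was 1.46 ± 0.12 lower on the log2 scale with poria than with atractylodes (-1.46, adjusted p = 3.02e-13), since CCL2 rose with the dose of atractylodes by 1.40 and differed by -0.06 between the doses of poria. It was 0.65 ± 0.12 higher with licorice than with ginseng (adjusted p = 5.47e-05) and 0.59 ± 0.15 higher with peony than with angelica (adjusted p = 0.0426). The last was 0.67 without the first peony high-dose library (adjusted p = 0.0426), and it was lost without any of 6 other libraries (adjusted p = 0.125 to 0.376).

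For CXCL12 the change with dose was -0.64 ± 0.10 with licorice relative to ginseng (adjusted p = 5.80e-06). For CX3CL1 it was also -0.64 ± 0.21 (adjusted p = 0.0299), which was lost without any of 5 libraries (adjusted p = 0.0600 to 0.186). CXCL16 gave no such difference, with an adjusted p of 0.114 between peony and angelica and higher values for the other pairs. No group held enough libraries for a check of single samples.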

How the results depend on the processing

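Of 51 called values of single chemokines, all kept their direction under the 6 alternatives and with each library left out. The same calls were made in 50 with RLE size factors, 42 without the filter, 45 with DESeq2, 43 in fits of the compared groups alone, 44 without the 5 libraries and 33 in every fit that left out 1 library. Under the 6 alternatives the calls lost were of CX3CL1, CXCL12 and the CCL2 dose-effect difference of peony and angelica; with 1 library left out they also included calls of CCL2 and CXCL16, given above with their libraries. For CX3CL1 the number of calls in 21 comparisons with vehicle was 5, and 3 without the filter, 3 in fits of the compared groups alone and 3 with DESeq2; for CXCL16 it was 1, and 5 in fits of the compared groups alone. The cause was not tested. With 1 library left out, the number was 0 to 6 for CXCL16, 3 to 5 for CX3CL1, 13 to 16 for CCL2 and 4 to 6 for CXCL12. Replicate numbers did not pair the samples (in 0 of 24 comparisons with 3 pairs was every correlation over 0.1; range -0.07 to 0.23), and with the replicate number as a block all 51 values kept their call, CCL2 with 15 calls against vehicle. The share of all genes called moved by over 1.5 times in 24 of 36 comparisons fitted on their groups alone, in 20 without the 5 libraries, in 10 without the filter, in 5 with the block and in 0 with RLE; for the atractylodes high dose against vehicle it was 586 of 15855 genes alone, 1481 of 18214 without the 5 libraries and 2485 of 17919 with all. RLE scaling moved the median log2 fold change of all genes by at most 0.01. Depth limits CCL7, CCL8, CCL20 and CXCL10, which held at most 10 counts a library, and groups of 2 or 3 libraries limit the rest.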
